A study of Mus musculus with 16 samples.

Results

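Cirbp and Rbm3, the genes of the cold-inducible RNA-binding proteins CIRBP and RBM3, were followed in RNA of sorted brain myeloid cells after experimental stroke. They are 2 of the 13982 genes in the table and were selected by symbol, with results of these libraries already known. Which values led to the choice is not recorded. Every level and every group difference of the pair is therefore given as a description, without a test. Both genes passed the filter on low values described below.

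CIRBP and RBM3 are small relatives with an RNA-recognition motif at one end and a glycine-rich tail. Mild cooling raises both, and they bind mRNA in the nucleus and cytoplasm, where they influence splicing, the choice of polyadenylation site and translation. RBM3 is best known in the brain for protecting synapses and neurons during cooling. CIRBP can also leave damaged or inflamed cells, and its extracellular form acts on TLR4 with MD-2 and on TREM1 of myeloid cells. Both genes also respond to hypoxia and other stresses, apart from temperature.

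The 16 libraries came from cells stained for CD45 and CD11b and labelled as microglia, all from C57BL/6 mice, in 4 groups of 4 libraries. Sham mice had no occlusion. MCAO mice had the middle cerebral artery occluded, and the group carries no exosome treatment in its label. The groups MCAO+Ctrl-exos and MCAO+AS-exos combined this surgery with tail-vein injections of 150 µg plasma exosomes, repeated at intervals of 3 days from the surgery on. The donors of these vesicles were Apoe KO mice fed either western or normal diet, and the labels do not state which diet each code stands for. Age, sex, body temperature and the time from surgery to sorting are not given in the sources used here. Nothing says that each library is a separate mouse, so p-values measure the spread between libraries, which may be technical.

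Levels are read as FPKM, a measure scaled to transcript length and library size, so levels of different genes can be compared per length. Values summed to 758283 to 983648 FPKM per library, and 8813 to 10003 genes reached 1 FPKM. Read depth is unknown, and no counting error can be given. Differences are on the scale of log2(FPKM + 1), with the standard error (SE) of a limma fit over all 16 libraries. Testing was limited to the 10846 genes that reached 1 FPKM in 4 or more libraries, and a gene passed at a Benjamini-Hochberg adjusted p below 0.05. MCAO+AS-exos replicate 4 stood apart within its group: its mean correlation across genes with its own group was 0.915, against 0.956 to 0.962 for replicates 1 to 3. The same measure was 0.881 to 0.902 in Sham, 0.905 to 0.92 in MCAO and 0.914 to 0.929 in MCAO+Ctrl-exos. Replicate 4 was thus within the range of the other MCAO groups, and replicates 1 to 3 were above it.

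The labelled cell type was checked against marker genes. The 10 homeostatic microglia markers summed to 20900 to 22900 FPKM per Sham library and to 981 to 1800 FPKM over the 12 libraries after MCAO. Monocyte markers (10 genes) summed to 33.1 to 161 FPKM in Sham and to 5100 to 10600 FPKM after MCAO. Neutrophil markers (8 genes) summed to 76.8 to 144 FPKM in Sham and to 1710 to 9970 FPKM after MCAO, and border macrophage markers (9 genes) to 2.87 to 60.5 and 1890 to 5690 FPKM. Neuron markers (5 genes) summed to at most 10.1 FPKM in any library and the 3 T and NK cell markers to at most 3.38 FPKM. Dendritic cell markers (9 genes, among them Siglech, which microglia also express) summed to 2040 to 2380 FPKM in Sham and 52.1 to 183 FPKM after MCAO, with 4 of the 9 higher and 2 lower. Astrocyte markers (6 genes) summed to 57.8 to 107 FPKM in Sham and to at most 15.3 FPKM after MCAO. In Sham 5 of these 6 had a mean below 1 FPKM, so the sum rested mainly on 1 gene. Of the 3 astrocyte markers tested, 1 was higher and 1 lower in MCAO than in Sham. Of all tested genes 24.5% were higher and 14.8% lower in that comparison. Markers of other cell types thus differed between Sham and MCAO in both directions. In such bulk samples, fewer cells of a type and less RNA per cell cannot be told apart.

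The start of Cirbp is shown because its flank is where a cold-responsive octamer, TCCCCGCC, bound by the factor Sp1, has been described. Of the pair, 1 gene, Cirbp, has an entry in the RefSeq promoter table of GRCm38.p6 (another build than the GRCm39.p6 named by the submitters). The 300 bases of its upstream start site run from 250 bases before the site to 50 after it, at chr10:80167589-80167888 on the plus strand, with the octamer in capitals.

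Cirbp: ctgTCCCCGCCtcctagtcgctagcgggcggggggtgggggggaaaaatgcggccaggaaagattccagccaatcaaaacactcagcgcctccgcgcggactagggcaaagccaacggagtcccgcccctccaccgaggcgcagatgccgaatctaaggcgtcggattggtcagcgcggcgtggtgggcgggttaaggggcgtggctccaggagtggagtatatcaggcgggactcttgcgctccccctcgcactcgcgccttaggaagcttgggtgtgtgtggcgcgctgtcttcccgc

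The octamer occupies bases 4 to 11 of this window, on the strand of the gene. The G and C content of the whole window is 65.7%. Searched on both strands, TCCCCGCC occurs in 1768 of 32851 promoter windows of 300 bases (5.38%). The GC box core GGGCGG, another sequence that Sp1 binds, occurs 3 times in the window, at bases 26 to 31, 123 to 128 and 186 to 191, without overlapping the octamer. Of all windows 35.7% hold that core. The second listed start site of Cirbp, at chr10:80167921-80168220, has 4 such cores and no octamer. A match describes the letters alone. The level of Sp1 is given with the regulators below.

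Cirbp was highest after MCAO with AS-exos and lowest after MCAO with Ctrl-exos. In Sham replicates 1 to 4 its level was 31.4, 78.9, 36.0 and 66.2 FPKM, a wide spread with replicates 2 and 4 high. In MCAO it was 36.2, 21.5, 20.5 and 21.7 FPKM, so that 3 libraries were nearly equal and replicate 1 lay above them. In MCAO+Ctrl-exos it was 12.9, 27.4, 24.9 and 4.89 FPKM, with replicate 4 the lowest of all 16. In MCAO+AS-exos it was 70.6, 99.1, 111 and 52.6 FPKM. Even the lowest of these, replicate 4, was above every MCAO and MCAO+Ctrl-exos library.

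The group means of Cirbp (± SD, n = 4) were, in rising order, 17.5 ± 10.6 FPKM in MCAO+Ctrl-exos, 25.0 ± 7.53 in MCAO, 53.1 ± 23.1 in Sham and 83.3 ± 26.6 in MCAO+AS-exos. Neighbours in this order overlapped in each case: the 4 MCAO+Ctrl-exos values with MCAO, MCAO with Sham through MCAO replicate 1, and Sham with MCAO+AS-exos. Groups further apart in the order did not overlap. MCAO+AS-exos lay above both MCAO and MCAO+Ctrl-exos, where 4.29% and 5.19% of tested genes did. Sham lay above MCAO+Ctrl-exos, and the share of all tested genes that did so was not counted.

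Rbm3 was abundant everywhere, at an average level higher than that of 97.8% of tested genes, against 80.7% for Cirbp. Its Sham values were 327, 319, 285 and 235 FPKM in replicates 1 to 4, the narrowest group in absolute terms. In MCAO they were 509, 777, 927 and 884 FPKM, all above Sham, with replicate 1 low. In MCAO+Ctrl-exos they were 414, 294, 323 and 575 FPKM, which reached into both the Sham and the MCAO range. In MCAO+AS-exos they were 795, 882, 913 and 679 FPKM, within the range of MCAO.

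The group means of Rbm3 were 292 ± 41.5 FPKM in Sham, 401 ± 126 in MCAO+Ctrl-exos, 774 ± 188 in MCAO and 817 ± 105 in MCAO+AS-exos. Sham and MCAO+Ctrl-exos overlapped, as did MCAO+Ctrl-exos with MCAO and MCAO with MCAO+AS-exos. The spread within groups was small for Rbm3, with a pooled SD of 0.33 on the log2 scale against a median of 0.57 over tested genes and 0.69 for Cirbp.

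**Figure D1:**
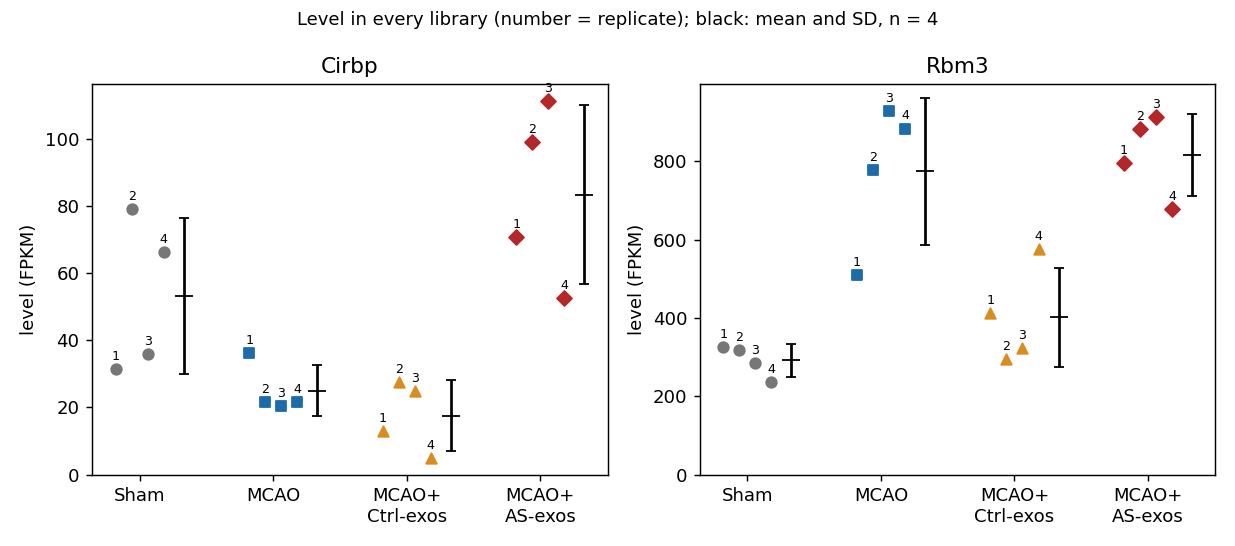
Level of Cirbp (left) and Rbm3 (right) in FPKM, from 0, in each of 16 libraries by group; numbers are replicates, and black marks are the mean and SD of 4 libraries. MCAO+AS-exos holds the highest Cirbp values (52.6 to 111 FPKM), while Rbm3 is as high in MCAO (509 to 927 FPKM) as in MCAO+AS-exos (679 to 913 FPKM).

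After stroke surgery alone, the pair went in opposite directions from Sham. Rbm3 was 2.66 times as high in MCAO as in Sham (log2 difference 1.38 ± 0.23, SE), and the lowest MCAO library exceeded the highest Sham library. Cirbp was 0.47 times as high (log2 difference -0.99 ± 0.43), with overlapping values. Of the pair, 1 gene lay wholly above Sham, where 21.8% of all tested genes did. The median difference of all tested genes was 0.25, and it was -0.03 after quantile normalization. Homeostatic microglia markers passed as lower in the same comparison in 10 of 10 cases and monocyte markers as higher in 10 of 10. Of all tested genes 14.8% passed as lower and 24.5% as higher. The part of these cells in the levels of Cirbp and Rbm3 was not tested.

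With Ctrl-exos, both genes had lower means than with MCAO alone. Rbm3 was at 0.52 times its MCAO mean (log2 difference -0.96 ± 0.23) and Cirbp at 0.70 times (log2 difference -0.69 ± 0.43). Values overlapped for both, so 0 of the pair lay wholly below MCAO, where 3.99% of tested genes did. The difference of Cirbp was -0.22 without MCAO+Ctrl-exos replicate 4, the library at 4.89 FPKM, and -0.98 without MCAO+Ctrl-exos replicate 2. That of Rbm3 ranged from -1.15 to -0.83 as libraries were left out singly.

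With AS-exos, Cirbp was 3.34 times as high as in MCAO without exosomes (log2 difference 1.68 ± 0.43), with no overlap. Rbm3 was 1.06 times as high (log2 difference 0.11 ± 0.23), with full overlap, and its difference changed sign with totals scaled to be equal (-0.02) and without MCAO replicate 1 (-0.08). Of the pair, 1 gene lay wholly above MCAO, where 4.29% of tested genes did. Without MCAO+AS-exos replicate 4 the differences were 1.88 for Cirbp and 0.19 for Rbm3. Of the marker genes, 1 passed in this comparison, Ly6c1 of the endothelial and mural list, which was higher (2.88 ± 0.65, limma adjusted p = 0.0261). Of all tested genes 1.06% were higher and 5.08% lower. Without MCAO+AS-exos replicate 2 or replicate 3, 0 genes in all were higher, so the call of Ly6c1 was lost. The 5 genes of that list summed to 5.94, 11.7, 24.8 and 59.0 FPKM in MCAO+AS-exos replicates 1 to 4 and to at most 9.69 FPKM in MCAO. The part of these cells in the levels of Cirbp and Rbm3 was not tested.

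Between the exosome groups, both genes were higher with AS-exos in every library. Cirbp was 4.75 times as high as with Ctrl-exos (log2 difference 2.37 ± 0.43) and Rbm3 2.04 times (1.06 ± 0.23). Both of the pair lay wholly above MCAO+Ctrl-exos, where 5.19% of tested genes did. Without MCAO+Ctrl-exos replicate 4 the difference of Cirbp was 1.90, and without MCAO+AS-exos replicate 4 it was 2.57. The comparison shares MCAO+AS-exos libraries with the one before and MCAO+Ctrl-exos libraries with the one before that. For Rbm3 the MCAO+AS-exos values lay within the MCAO range and the MCAO+Ctrl-exos mean was lower, whereas for Cirbp the MCAO+AS-exos values lay above both other MCAO groups.

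**Figure D2:**
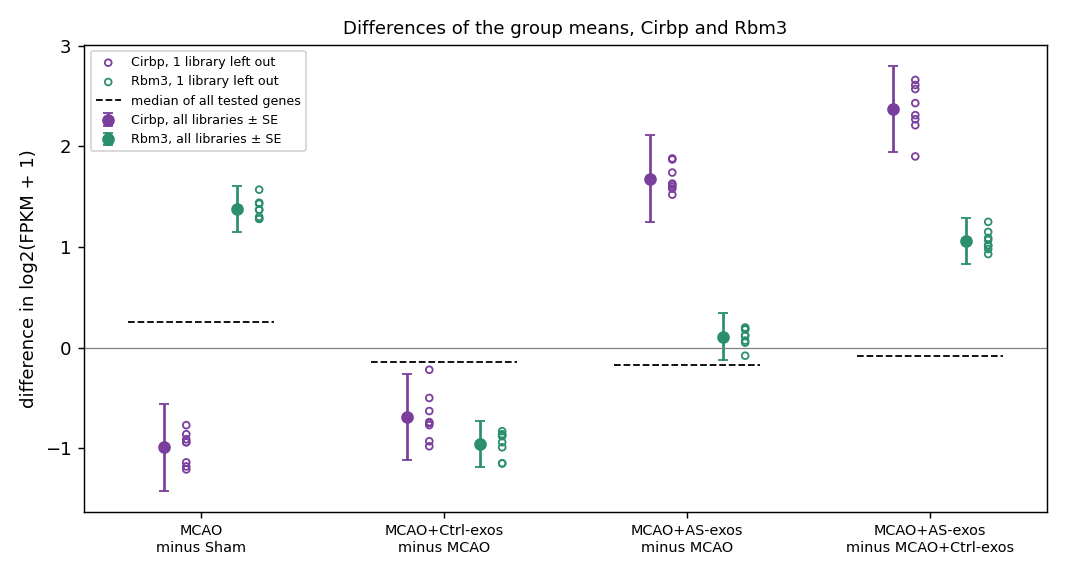
Differences between group means in log2(FPKM + 1) for Cirbp and Rbm3 in 4 comparisons, with SE bars; open circles are the values with 1 library left out and dashed lines the median of all tested genes. Both genes are above 0 in MCAO+AS-exos minus MCAO+Ctrl-exos (2.37 and 1.06), and they lie on opposite sides of 0 in MCAO minus Sham (-0.99 and 1.38).

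Neutrophil markers varied between the groups compared here. Their summed level was 3520 to 8120 FPKM in MCAO+AS-exos, 1820 to 3630 in MCAO+Ctrl-exos and 1710 to 9970 in MCAO. Monocyte marker sums overlapped between MCAO+AS-exos (7060 to 9780 FPKM) and MCAO+Ctrl-exos (5100 to 10600 FPKM). Of the 8 neutrophil markers tested, 1 passed between the exosome groups, Lcn2, which encodes the siderophore-binding protein lipocalin 2 (log2 difference 3.90 ± 0.77, limma adjusted p = 0.0392). Of the 10 homeostatic markers 1 passed, the purinergic receptor gene P2ry13 (1.81 ± 0.38, limma adjusted p = 0.0451). Of all tested genes 0.157% were higher and 0.129% lower between these groups. Without MCAO+AS-exos replicate 2 or replicate 3, 1 gene in all was higher, so Lcn2 and P2ry13 did not both keep their call. Within MCAO, replicate 1 had the lowest neutrophil sum (1709 FPKM), the highest homeostatic sum (1800 FPKM), the lowest Rbm3 and the highest Cirbp. Within MCAO+AS-exos, replicate 4 had the lowest neutrophil sum (3524 FPKM) and was lowest for both genes. In MCAO+Ctrl-exos, by contrast, replicate 1 had the highest neutrophil sum (3633 FPKM) and replicate 4 the highest Rbm3. The part of these cells in the results was not tested.

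The order of the libraries within a group was compared between the pair. In MCAO+Ctrl-exos the order of Cirbp was the exact reverse of the order of Rbm3: replicate 4 was lowest for Cirbp and highest for Rbm3, and replicate 2 the other way round. In MCAO, replicate 1 was highest for Cirbp and lowest for Rbm3, and replicate 3 the other way round. In MCAO+AS-exos the order was the same for both genes, rising from replicate 4 over 1 and 2 to 3. With each group's mean removed, their levels correlated at r = -0.61 over the 16 libraries, and at r = 0.055 with the group means kept. These are descriptions, since libraries of a group share their treatment and each library's scaling acts on both genes.

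Rbm3 exceeded Cirbp per length in each of the 16 libraries. The ratio of Rbm3 to Cirbp was 3.56 to 10.4 in Sham, 14 to 45.3 in MCAO and 10.7 to 118 in MCAO+Ctrl-exos. In MCAO+AS-exos it was 8.22 to 12.9, below each MCAO ratio and overlapping Sham and MCAO+Ctrl-exos.

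**Figure D3:**
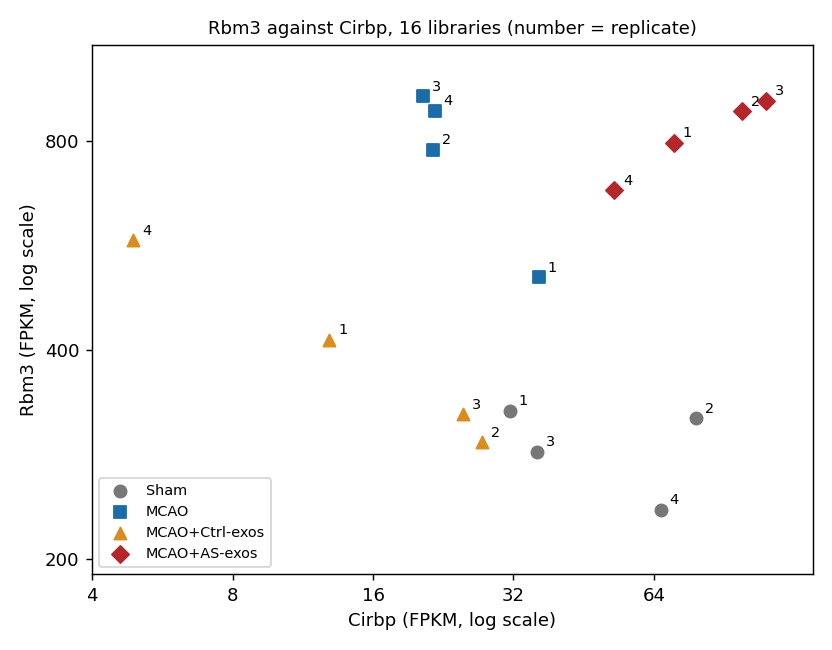
Rbm3 against Cirbp, both in FPKM on log scales, for 16 libraries with replicate numbers. MCAO+AS-exos libraries lie at the upper right and rise together, while the MCAO+Ctrl-exos libraries descend from replicate 4 (4.89 FPKM Cirbp, 575 FPKM Rbm3) to replicate 2 (27.4 and 294 FPKM).

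The genes whose levels followed Cirbp most closely over the 16 libraries were sought among 5332 tested genes of higher mean level. Among them were Dus1l, a tRNA dihydrouridine synthase gene (Pearson r = 0.907), Tbrg1 (0.853), Tpd52l2 (0.852) and the corepressor subunit gene Gps2 (0.830). Each of these 4 had its lowest mean in MCAO+Ctrl-exos or MCAO and its highest in MCAO+AS-exos. Gps2, for example, averaged 40 FPKM in Sham, 35.3 in MCAO, 18.9 in MCAO+Ctrl-exos and 45.2 in MCAO+AS-exos. With group means removed, Dus1l was again among the 5 closest (0.807), as was Isyna1, an inositol phosphate synthase gene (0.820).

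For Rbm3, the closest genes were Lcn2 (r = 0.923), Bzw1 (0.906), the lysosomal fucosidase gene Fuca1 (0.891), the mitochondrial channel gene Vdac1 (0.880) and the syntenin gene Sdcbp (0.879). Lcn2 averaged 0.1 FPKM in Sham, 48.3 in MCAO, 14.9 in MCAO+Ctrl-exos and 170 in MCAO+AS-exos, and Sdcbp 383, 952, 708 and 1360 FPKM. Rbm3 itself ranked 2061 in likeness to Cirbp. With group means removed the closest to Rbm3 were Rpf1, a ribosome biogenesis gene (0.915), and Tgds (0.864). All these r values are descriptions over libraries that share group and scaling.

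Other proteins are named for cold shock in a different sense, those with a cold-shock domain. Of 8 genes listed for them, 5 were in the table and 4 were tested. After MCAO 4 of 4 tested genes were higher than in Sham and 0 were lower, where 24.5% of all tested genes were higher and 14.8% lower (2654 and 1600 genes, 2084 and 2164 after quantile normalization, 2072 and 1977 with length and GC trends removed). Their median difference was 2.05, against 0.25 over all tested genes, and the 4 calls held with quantile normalization, scaled totals and length and GC trends removed. Carhsp1, which encodes a stabilizer of Tnf mRNA, rose from 0.335 ± 0.423 to 12.6 ± 2.47 FPKM (log2 difference 3.38 ± 0.34, limma adjusted p = 1.34e-07). It passed the filter on low values only through the groups after MCAO, where it was high. Ybx1, a Y-box RNA-binding protein gene, rose from 50.7 ± 17.4 to 208 ± 32 FPKM (adjusted p = 0.0002) and Ybx3 by 2.03 ± 0.43 log2 units. None of the 4 passed limma's adjusted threshold in the other 3 comparisons; at an unadjusted p below 0.05 the numbers were 0 with Ctrl-exos against MCAO, 2 with AS-exos against MCAO and 1 between the exosome groups. Of all tested genes, 10.9%, 25.7% and 19.6% had such a p in these 3 comparisons. With scaled totals 1 of the 4 was lower with AS-exos against MCAO. Without MCAO+AS-exos replicate 4, 2 of the 4 were lower with AS-exos in both of its comparisons. Over all genes 1603 were then lower against MCAO and 916 against Ctrl-exos. With AS-exos, Ybx1 was at 120 ± 107 FPKM, made up of 279.9 FPKM in replicate 4 and 56.1 to 72.0 FPKM in the other libraries.

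Heat-inducible chaperone genes respond to warming through HSF1. Members of their list, which also holds Hsf1 itself and constitutive genes such as Hspa8, were called about as often as all genes after MCAO. Of 14 tested 3 rose, 2 fell and 9 did not pass, beside 24.5% and 14.8% of all tested genes, with a median of -0.19. The HSP70 gene Hspa1a fell from 15.2 ± 3.50 to 2 ± 1.26 FPKM (-2.51 ± 0.54, limma adjusted p = 0.00106) and its co-chaperone gene Dnajb1 from 83.0 ± 8.82 to 22.4 ± 11.2 FPKM (-1.97 ± 0.37). Hsp90ab1, a constitutive HSP90 gene, rose from 198 ± 108 to 520 ± 60.5 FPKM (1.58 ± 0.40), and the mitochondrial chaperonin gene Hspd1 by 1.45 ± 0.32 and the co-chaperone gene Bag3 by 1.55 ± 0.46 log2 units. With AS-exos against MCAO, 1 of 14 fell (Bag3, -1.56 ± 0.46, adjusted p = 0.0486) and 0 rose, where 5.08% and 1.06% of all tested genes did. None fell after quantile normalization, with length and GC trends removed, with a pseudocount of 0.1 or without a filter, and 2 fell with scaled totals. Without MCAO+AS-exos replicate 4, 3 fell and 1 rose, beside 1603 and 421 genes in all. Between the exosome groups none of the 14 passed in limma (3 at an unadjusted p below 0.05, where 19.6% of all genes were). Without MCAO+AS-exos replicate 4, 3 were lower, as were 916 genes in all. Hspa1a was at 3.01 ± 4.19 FPKM with AS-exos and 2.12 ± 2.07 with Ctrl-exos, and the constitutive HSP70 gene Hspa8 at 945 ± 212 and 1060 ± 226 FPKM.

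Among 18 genes of RNA-recognition motif proteins of the hnRNP, SR and RBMX kinds, 1 rose, 3 fell and 14 did not pass after MCAO. Of all tested genes 24.5% rose and 14.8% fell. The median difference of the 18 was 0.16, against 0.25 over all tested genes. With length and GC trends removed 3 rose. The splicing factor genes Srsf7 (226 ± 56.3 to 76.7 ± 18.9 FPKM, limma adjusted p = 1.02e-04), Srsf5 (584 ± 57.4 to 308 ± 80.8 FPKM) and Tra2b (212 ± 70.2 to 101 ± 21.0 FPKM) fell. The hnRNP gene Hnrnpab rose from 46.7 ± 9.93 to 153 ± 34.5 FPKM. Rbmx, the gene of a relative of CIRBP and RBM3 that also has a glycine-rich stretch, was at 6.59 ± 2.61 FPKM in Sham, 15.1 ± 11.3 in MCAO and 9.60 ± 3.28 with AS-exos, and passed in none of the 4 comparisons. Rbmx and Rbmxl1 are close copies, so their values are uncertain.

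With AS-exos against MCAO, 0 of these 18 rose and 3 fell (Hnrnpab, Hnrnpa3 and Srsf2), where 1.06% of all tested genes were higher and 5.08% lower. Their median was -0.59, against -0.17 over all tested genes. Hnrnpab was at 174.8 FPKM in MCAO+AS-exos replicate 4, against a MCAO mean of 153 FPKM, and at 26.1 to 40.3 FPKM in the other 3 libraries. Without replicate 4, 10 of the 18 were lower, while over all genes the number lower went from 551 to 1603 and the number higher from 115 to 421. Without replicate 1, 2 or 3 of MCAO+AS-exos, 0 genes in all were lower and at most 2 higher. The scaling also moved the count: 2 of the 18 were lower after quantile normalization (96 higher and 222 lower over all genes), 1 with length and GC trends removed (67 and 139) and 6 with scaled totals. Against MCAO+Ctrl-exos, 0 of 18 passed in limma (0.157% of all tested genes were higher and 0.129% lower). An unadjusted p below 0.05 was found for 7 of them and for 19.6% of all tested genes. Without replicate 4, 1 was higher and 7 lower, beside 380 and 916 genes in all. With Ctrl-exos against MCAO 0 of 18 passed in limma (0.0461% of all tested genes were higher and 0.0277% lower). An unadjusted p below 0.05 was found for 6 of them and for 10.9% of all tested genes. No member of the other 5 lists passed there, and at most 1 per list had an unadjusted p below 0.05.

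Partners and regulators of CIRBP and RBM3 were measured for 15 genes after MCAO: 6 rose, 2 fell and 7 did not pass (median 0.57), beside 24.5% and 14.8% of all tested genes. With length and GC trends removed 5 rose and 1 fell. Txn1, the thioredoxin gene whose mRNA CIRBP binds, rose from 88.8 ± 10.2 to 999 ± 132 FPKM (3.47 ± 0.21, limma adjusted p = 5.44e-11). The stress granule gene G3bp1 rose from 24.7 ± 6.84 to 61.5 ± 8.67 FPKM and the translation initiation factor gene Eif4g1 from 6.44 ± 2.45 to 26.9 ± 10 FPKM. Another stress granule gene, Tia1, fell from 33.4 ± 7.68 to 11 ± 1.64 FPKM. Sp1 was at 10.5 ± 1.47 FPKM in Sham, 12.4 ± 2.01 in MCAO, 9.78 ± 3.78 with Ctrl-exos and 6.00 ± 3.57 with AS-exos, and passed in none of the comparisons. Rtn3, the reticulon gene whose translation RBM3 raises in cooled neurons, was at 98.7 ± 18.8, 74.4 ± 11, 84.0 ± 27.0 and 95.6 ± 6.80 FPKM in the same order, also without passing. With AS-exos against MCAO, 0 of 15 rose and 3 fell, where 1.06% and 5.08% of all tested genes did. The 3 were the casein kinase 2 subunit gene Csnk2a1 (-1.40 ± 0.35), Eif4g1 (-1.94 ± 0.49) and the stress granule gene Tial1 (-1.19 ± 0.31). Without MCAO+AS-exos replicate 4, 7 of 15 were lower, as were 1603 genes in all. After quantile normalization or with length and GC trends removed 0 of 15 were. Between the exosome groups 0 of 15 passed in limma (4 at an unadjusted p below 0.05, where 19.6% of all genes were). Without MCAO+AS-exos replicate 4, 1 was higher and 4 lower, beside 380 and 916 genes in all.

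Genes for the receptors and signalling of extracellular CIRBP, rises and falls together, were called after MCAO at about the rate of all genes. Of 10 genes 1 rose, 3 fell and 6 did not pass (median -0.10), beside 24.5% and 14.8% of all tested genes. Those that did not pass were Cd14, Il6ra and the signalling genes Myd88, Ticam1, Irak4 and Nlrp3. Trem1 rose from 0.0450 ± 0.0379 to 37.2 ± 10.9 FPKM (5.15 ± 0.36, limma adjusted p = 7.74e-10), and passed the filter on low values only through the groups after MCAO. Tlr4 fell from 20.6 ± 5.36 to 7.79 ± 4.08 FPKM, Ly96, which encodes MD-2, from 556 ± 286 to 138 ± 40.9 FPKM, and Il6st, the gp130 gene, from 20.4 ± 7.14 to 5.68 ± 1.51 FPKM. Among MCAO groups 0 of 10 passed in limma; at an unadjusted p below 0.05 there were 0, 3 and 2 in Ctrl-exos against MCAO, AS-exos against MCAO and AS-exos against Ctrl-exos, where 10.9%, 25.7% and 19.6% of all tested genes were. With scaled totals 1 was lower with AS-exos against MCAO. Without MCAO+AS-exos replicate 4, 1 was higher and 2 lower against MCAO, and 1 higher and 1 lower against Ctrl-exos. Over all genes 421 were then higher and 1603 lower against MCAO, and 380 and 916 against Ctrl-exos. Trem1 was at 43.7 ± 24.3 FPKM with AS-exos and 38.4 ± 10.2 with Ctrl-exos, and Tlr4 at 8.66 ± 0.780 and 10.3 ± 2.66 FPKM.

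Circadian clock genes, some of whose mRNAs CIRBP binds in other cells, were changed after MCAO in 10 of 19 cases, 5 up and 5 down (median 0.54), where 24.5% and 14.8% of all tested genes were. With length and GC trends removed 3 were up and 5 down, and with a minimum of 5 FPKM 3 were down. The repressor genes Bhlhe40 (0.0400 ± 0.0271 to 68.3 ± 14 FPKM, limma adjusted p = 1.77e-13) and Nfil3 (1.05 ± 0.903 to 61.0 ± 21.9 FPKM) rose, and Bhlhe41 fell from 93.1 ± 28.1 to 16.5 ± 2.68 FPKM. Nr1d1, the REV-ERB alpha gene, rose from 0.0300 ± 0.0346 to 2.77 ± 0.658 FPKM. Bhlhe40 and Nr1d1 passed the filter on low values only through the groups after MCAO. Clock, a described target of CIRBP, was at 5.33 ± 1.90 FPKM in Sham, 7.73 ± 4.16 in MCAO, 6.30 ± 2.23 with Ctrl-exos and 2.80 ± 0.970 with AS-exos, and passed in none of the comparisons. Among MCAO groups 0 of 19 passed in limma; at an unadjusted p below 0.05 there were 1, 6 and 4 in the same order of comparisons, beside 10.9%, 25.7% and 19.6% of all tested genes. Against MCAO, 1 was lower with scaled totals or a minimum of 5 FPKM. Without MCAO+AS-exos replicate 4, 4 were lower against MCAO and 2 against Ctrl-exos, beside 1603 and 916 genes in all.

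**Figure D4:**
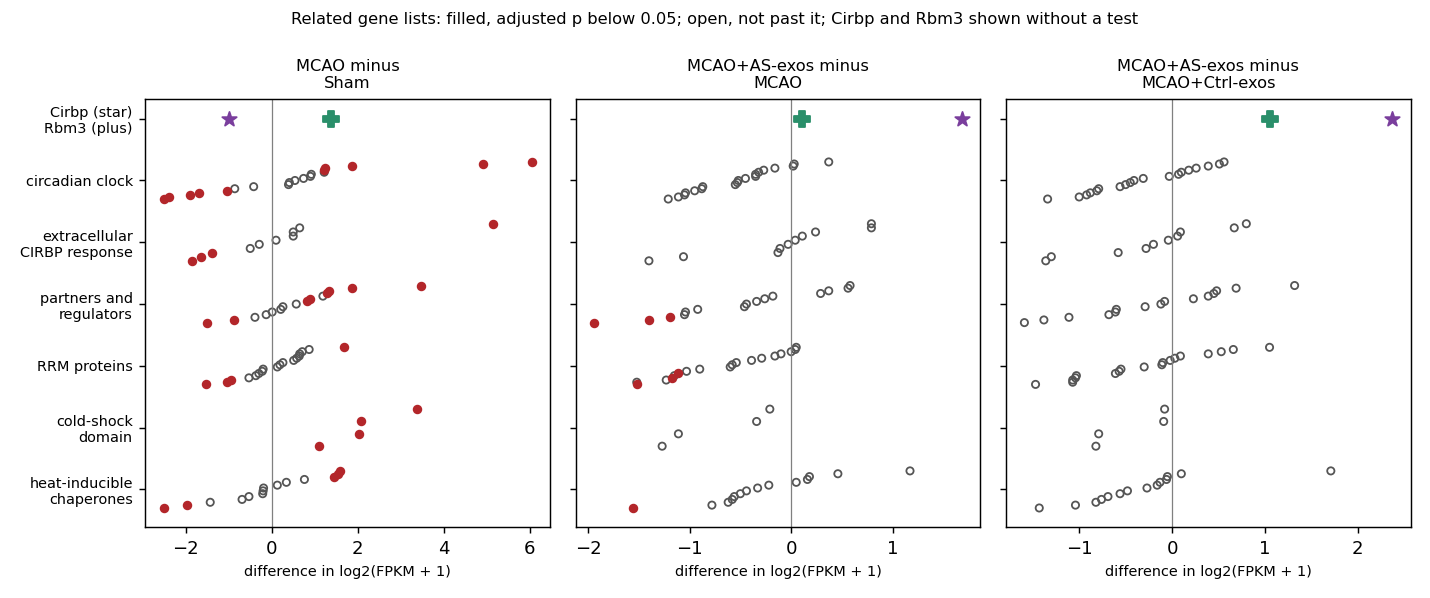
Differences in log2(FPKM + 1) of the tested members of 6 related gene lists in 3 comparisons (the fourth, MCAO+Ctrl-exos minus MCAO, had 0 calls in these lists); filled points passed an adjusted p of 0.05, open points did not, and Cirbp (star) and Rbm3 (plus) are placed above without a test. Between the exosome groups no list member passed, and Cirbp, at 2.37, lies to the right of each of them.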

How the data were processed

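RNA of CD45 and CD11b stained cells was sequenced in 16 libraries; groups were taken from sample titles. The submitters' processing notes name HISAT2, Bowtie2, RSEM 1.3.1 and GRCm39.p6, without roles, annotation or filters. The deposited values carry no unit; they were read as FPKM, made by the authors, from the naming of RSEM and the unequal totals, and TPM of a subset of genes is possible. Either is scaled per library and length, so a level depends on all other transcripts. The table and the single-library files were identical.

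Values were analysed as log2(FPKM + 1) in limma 3.58.1 (R 4.3.3): 1 model with 4 group means, eBayes with trend and robust, two-sided contrasts, Benjamini-Hochberg adjustment over 10846 genes. The other 3136 were not tested. Cirbp, Rbm3 and the lists were chosen with earlier results of these data known. Named were the pair, up to 4 members with the smallest p among those that passed per list and comparison, further members needed to describe a list, and the 5 most similar genes by Pearson r, without predicted genes. Tested list members that are not named still enter the counts of calls of their list, and members that were not tested do not. Alternatives were another pseudocount (0.1), no filter or a minimum of 5 FPKM, quantile normalization, scaled totals, a replicate block, no trend, library quality weights, only the 8 libraries compared, single libraries left out and, added after seeing the data, trends with transcript length and GC (from GENCODE transcripts) removed. Replicate numbers were not taken as pairs, since nothing states that they pair samples. Residuals of equal numbers correlated at -0.148 to 0.0923. Some genes that this rule names are not reported here. The procedure was tested on simulated data.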

Additional observations from a re-analysis of the deposited data

Results flagged for a closer look

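In the groups of 4, a library was picked out when its gap to the nearest other exceeded Dixon's 95% critical value as a share of the group's range, which chance gives in about 1 in 20 groups. Of 124 combinations of gene and group (Cirbp, Rbm3 and the named list genes), 16 met this (12.9%), and 8 of the 16 were in MCAO+AS-exos replicate 4. Cirbp was picked out once, in MCAO replicate 1 at 36.24 FPKM against 20.46 to 21.69 in the other libraries, and Rbm3 in none.

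In MCAO+AS-exos replicate 4, Hspa1a was at 9.28 FPKM (0.73 to 1.27 in the others), Hsp90ab1 at 690.65 (211.32 to 241.21), Bag3 at 22.14 (4.28 to 6.61) and Ybx1 at 279.86 (56.07 to 71.97). Hnrnpab was at 174.8 FPKM there (26.13 to 40.3), Srsf2 at 263.14 (81.89 to 102.23), Eif4g1 at 21.72 (3.41 to 3.84) and Csnk2a1 at 19.47 (5.75 to 7.11). Each was above the other libraries, whereas Cirbp and Rbm3 had their lowest value of the group in that library.

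The remaining values were spread over 5 other libraries. MCAO+Ctrl-exos replicate 1 had Srsf5 at 253.12 and Il6st at 10.68 FPKM, and MCAO+Ctrl-exos replicate 4 had Nfil3 at 91.92 FPKM. Sham replicate 1 had Tra2b at 316.38 and Hnrnpa3 at 49.89 FPKM, and MCAO+AS-exos replicate 1 had Ly96 at 186.75 FPKM, each above its group. Bhlhe40 was listed at 0 FPKM in Sham replicate 2, against 0.05 to 0.06 in the other Sham libraries.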

How the results depend on the processing

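Over the alternatives, the differences of Cirbp and Rbm3 moved by less than their pooled SD, 0.69 and 0.33. This limit is as large as the Cirbp difference in MCAO+Ctrl-exos against MCAO (-0.69). It is larger than the Rbm3 difference in MCAO+AS-exos against MCAO (0.11). For these differences it cannot tell a stable value from a fall to 0. Outside the leaving out of libraries, Cirbp ranged from -1.45 to -0.99 in MCAO against Sham, -0.89 to -0.56 in MCAO+Ctrl-exos against MCAO, 1.46 to 1.90 in MCAO+AS-exos against MCAO and 2.30 to 2.46 between exosome groups. Rbm3 ranged from 1.08 to 1.60, -1.17 to -0.80, -0.02 to 0.19 and 0.90 to 1.20 in the same order. The lowest value of Cirbp, -1.45, came with length and GC trends removed, an alternative chosen after seeing the data. Leaving out single libraries gave -1.21 to -0.77, -0.98 to -0.22, 1.52 to 1.88 and 1.90 to 2.66 for Cirbp and 1.28 to 1.57, -1.15 to -0.83, -0.08 to 0.20 and 0.93 to 1.25 for Rbm3. A replicate block left these differences as they were (2.37 and 1.06 between exosome groups), since every group has every number.

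Counts over all genes were less stable outside MCAO against Sham; the cause was not tested. In MCAO+Ctrl-exos against MCAO (5 higher, 3 lower), the number higher was 1 without a filter, 2 with scaled totals, 3 with the replicate block, 0 without the trend, 2 with length and GC trends removed and 1 with only the 8 libraries compared; quality weights gave 48 and 11. In MCAO+AS-exos against MCAO (115 and 551), the numbers were 72 and 828 with scaled totals, 1138 and 2817 with quality weights, 67 and 139 with length and GC trends removed and 15 and 23 with the 8 libraries, and 222 were lower with quantile normalization. Between exosome groups (17 and 14), they were 37 and 56 with a minimum of 5 FPKM, 43 and 45 with quantile normalization, 10 and 6 without the trend, 1226 and 2040 with quality weights and 6 and 3 with the 8 libraries; 7 were lower without a filter, 44 with the replicate block and 24 with length and GC trends removed. Leaving out libraries gave 0 to 71 higher and 2 to 18 lower in the first, 0 to 421 and 0 to 1603 in the second and 1 to 380 and 0 to 916 in the third of these comparisons; the highest came without MCAO+Ctrl-exos replicate 1 in the first and without MCAO+AS-exos replicate 4 in the others. In the second, no gene was lower and at most 2 higher without MCAO+AS-exos replicate 1, 2 or 3, and without a MCAO library 11 to 40 were higher and 26 to 92 lower.

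Results for named list genes were not examined without the trend, with quality weights or with only the 8 libraries compared. The remaining alternatives were 15 per result, and 14 for Nr1d1. Of 31 such results, 24 kept their call in all of these. The 7 of MCAO+AS-exos against MCAO (Bag3, Csnk2a1, Eif4g1, Hnrnpa3, Hnrnpab, Srsf2 and Tial1) each lost it in 7 to 11 of 15. None changed direction.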
